A study of Drosophila melanogaster with 2 samples.

Results

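The genes described are those of the mitochondrial ribosomal proteins of Drosophila melanogaster, chosen as every protein-coding gene of the Ensembl annotation on dm6 whose symbol begins with mRpL (large subunit) or mRpS (small subunit). They number 73 of 13945 protein-coding genes on the nuclear chromosomes, 47 of the large and 26 of the small subunit. The data are peaks of the transcription factor Cnc (cap'n'collar), mapped by chromatin immunoprecipitation followed by sequencing (ChIP-seq) in whole wandering larvae of the third instar, with males and females pooled. The larvae came from 1 transgenic line, named cnc-GFP in the labels, which stably expresses Cnc with eGFP at its C terminus, and anti-GFP antibody was used to precipitate the fusion. There were 2 biological replicates of 1 group, which shared the line, stage, tag and antibody. No larvae without the tag and no other condition were analysed here, so nothing was compared between conditions and no p-value is given. Whole larvae mix all tissues, and the peaks do not show in which cells a site was bound.

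Mitochondrial ribosomes make the few proteins encoded by mitochondrial DNA, which are core subunits of the respiratory chain and the ATP synthase. Their RNA comes from the mitochondrial genome, but all of their proteins are encoded in the nucleus and imported. Some of these proteins descend from those of the bacterial ancestor, and others were added in the mitochondrial lineage. Cnc is the fly counterpart of vertebrate Nrf2, a basic leucine zipper factor that binds DNA with a small Maf partner and is known for the response to oxidative stress.

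The sequences at the summits of 5 of the 7 highest member peaks are printed to show what lay under them, and those at mRpL41 and mRpL23 are not. A summit is the position that the peak caller gave as the highest point of a peak. Each window runs 50 bp to either side of the summit on the plus strand of dm6, was read from the RefSeq genome sequence, and touches no annotated UTR. Capitals mark any match to 1 of the 12 motifs searched, and only mRpL20 has one, the reverse complement of CGATA.
mRpS10, chr3R:15229489-15229589: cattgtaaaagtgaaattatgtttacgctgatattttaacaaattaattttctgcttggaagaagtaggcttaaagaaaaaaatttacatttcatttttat
mRpS23, chr2L:13835397-13835497: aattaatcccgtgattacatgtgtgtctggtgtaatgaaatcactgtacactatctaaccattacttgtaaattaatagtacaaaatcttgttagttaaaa
mRpL24, chr2L:4945419-4945519: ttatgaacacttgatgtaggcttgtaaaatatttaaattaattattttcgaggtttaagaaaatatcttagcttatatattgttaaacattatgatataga
mRpS2, chr2L:4850513-4850613: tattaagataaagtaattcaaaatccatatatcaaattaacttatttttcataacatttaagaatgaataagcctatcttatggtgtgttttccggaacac
mRpL20, chr3L:13018033-13018133: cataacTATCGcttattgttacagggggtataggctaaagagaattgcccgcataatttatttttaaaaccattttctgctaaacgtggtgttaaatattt
The GC content of these windows was 22.8% at mRpS10, 20.8% at mRpL24 and 32.7% at mRpL20. Over the windows at the highest peak of each member with one, the median was 28.7%. Over all 3832 promoter peaks, including those that are not the highest of a gene, it was 33.7%.

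Most mitochondrial ribosomal protein genes had a Cnc-eGFP peak at the promoter. A promoter summit is one that lies no more than 1000 bp from a transcription start site (TSS) of the gene, in either direction. A reproducible peak is one in the list that the authors filtered by irreproducible discovery rate (IDR), a measure of how well replicates keep the order of peaks. Of the 73 genes, 46 (63.0%, exact 95% binomial interval 50.9 to 74.0) had a reproducible promoter summit, against 31.9% of all protein-coding genes. In the list called on both replicates together the count was 58 of 73 (79.5%), against 56.1% of all genes. Replicate 1 alone gave 60 (82.2%, against 57.4%) and replicate 2 alone 61 (83.6%, against 56.7%). All 46 genes had a promoter summit in both replicate lists, but the reproducible list was itself made from both replicates. This is therefore no separate support. The peak of each of the 46 had the same rank in the reproducible list as in the pooled list. Presence in the reproducible list did not mean alike ranks in the replicates, which were 12862 and 3311 at mRpL36. Over all members, 58 (79.5%) had a promoter summit in both replicate lists, against 49.8% of all genes. The intervals cover counting error over genes only, and neighbouring genes that share a peak are not independent.

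Of the members, 67 have 1 annotated TSS, and 42 of these (62.7%) had a reproducible promoter summit, against 25.9% of all genes with 1 TSS. When each summit was given only to the gene of the nearest TSS, 23 members (31.5%) kept one, against 23.0% of all genes.

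**Figure D1:**
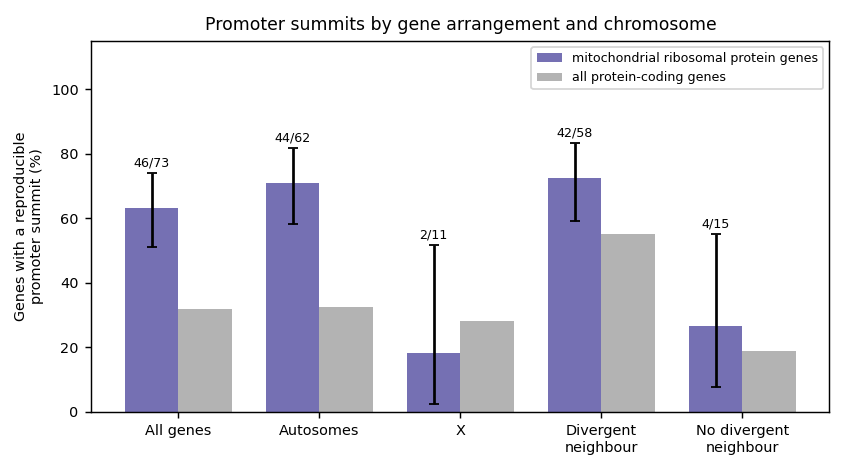
Share of genes with a reproducible promoter summit (vertical axis, percent), for the mitochondrial ribosomal protein genes (purple) and all protein-coding genes (grey), over all genes, by chromosome and by whether a divergent gene starts within 1000 bp. Error bars are exact 95% binomial intervals and the numbers above them are genes with a summit over genes in the class, such as 46/73 for all members and 2/11 on X.

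The highest member peaks ranked near the top of the whole list. The height of a peak is the deposited signal value, a score against a control with no stated scale. The median over the 46 genes was 557 in the pooled call, and over all 4449 genes with a reproducible promoter summit it was 446. As a percentile of the 6153 reproducible peaks, the median was 74.5 for the members and 64.0 for all these genes. The highest 5% of the list held the peaks of 7 of the 46 members (15.2%) and of 407 of all these genes (9.15%). The lowest member, mRpL22, had a value of 249.9, while the list itself ran from 206 to 7349.

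Values were mostly higher in the replicate 1 list than in the replicate 2 list. The median over the 46 genes was 311 in replicate 1 (54.3 to 2438) and 247 in replicate 2 (63.2 to 1935), and replicate 1 was the higher in 36 of them. Spearman's correlation between the lists across the 46 genes was 0.855, given as a description of genes that share both libraries. The widest disagreement was at mRpL36, with 54.3 in replicate 1 and 159 in replicate 2, and at mRpS7, with 101 and 253. In the other direction, mRpL20 had 1086 and 490.0, and mRpL50 had 363 and 173. Scales were not matched between lists, so that a level is read within its own list.

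**Figure D2:**
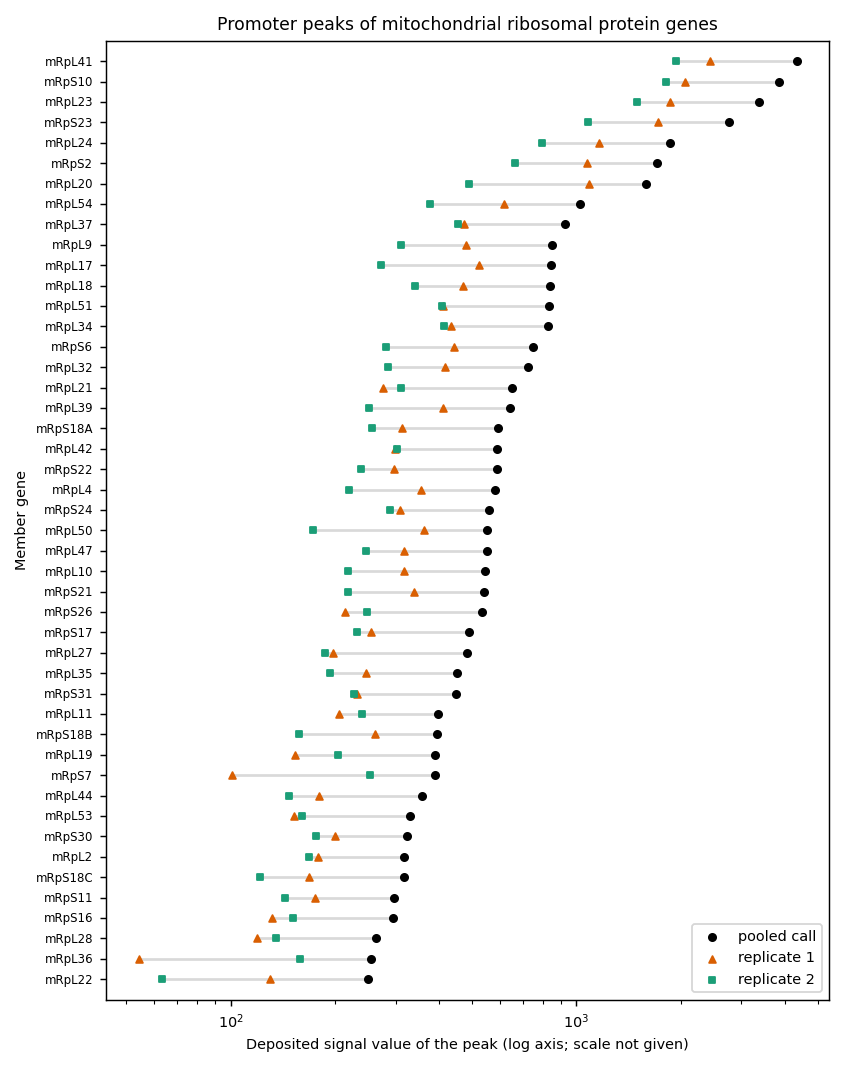
Deposited signal value (horizontal log axis, scale not given) of the highest reproducible promoter peak of each of the 46 genes, in the pooled call (black circles) and in replicate 1 (orange triangles) and replicate 2 (green squares). The pooled values run from 249.9 at mRpL22 to 4328 at mRpL41, and mRpL36 and mRpS7 have their replicate 1 value well below that of replicate 2.

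Among the large subunit proteins, 29 of 47 genes (61.7%) had a reproducible promoter summit, with a median signal value of 591. The highest was mRpL41, a mitochondrial addition to the subunit, on 2R (15217570 to 15217935). Its signal value was 4328 in the pooled call (rank 13 of all reproducible peaks), 2438 in replicate 1 and 1935 in replicate 2, and the summit was intergenic, 148 bp upstream of the TSS. It stood among the highest peaks of the genome in both replicates.

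For mRpL23, whose bacterial counterpart docks targeting factors at the tunnel exit, the peak on 3L (2373393 to 2373813) had 3375 in the pooled call, 1865 in replicate 1 and 1500.4 in replicate 2. Its summit lay 61 bp downstream of the TSS, in the 5′ UTR, which made it 1 of 4 member summits on the downstream side. mRpL24, the counterpart of a protein that starts the folding of the large ribosomal RNA in bacteria, had 1869 in the pooled call, 1162 in replicate 1 and 793 in replicate 2 (2L, 4945295 to 4945646). mRpL17, another protein near the tunnel exit in bacteria, had 845, with 524 and 273 in the replicates (3L, 264472 to 264747). In all 3 the replicate 1 value was the higher.

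mRpL20, the counterpart of a bacterial protein needed early in assembly, had 1589 in the pooled call, 1086 in replicate 1 and 490.0 in replicate 2 (3L, 13017920 to 13018317). mRpL9, whose bacterial counterpart sits at the base of the L1 stalk, had 852, with 479.8 and 311 in the replicates (3R, 15330457 to 15330673). mRpL18, a counterpart of a bacterial protein that binds 5S ribosomal RNA, had 841, with 471 and 342 (2R, 12756329 to 12756462). mRpL34, a counterpart of a small bacterial protein bound to the large ribosomal RNA, had 828, with 435 and 414 (2R, 16098621 to 16098872). The last 3 lay close together in rank, at 775, 794 and 812.

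The remaining genes of the large subunit among the 15 highest encode mitochondrial additions. mRpL54 had 1022 in the pooled call, 619 in replicate 1 and 378 in replicate 2 (2R, 21060537 to 21060860). mRpL37 had 929, with 473 and 454, and mRpL51 had 831, with 412 and 408 (2L, 8517316 to 8517480). Within the replicate lists their ranks were 508 and 806 at mRpL54, 792 and 586 at mRpL37, and 1010 and 700 at mRpL51.

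Among the small subunit proteins, 17 of 26 genes (65.4%) had a reproducible promoter summit, with a median signal value of 532. mRpS10, whose counterpart in bacteria is a protein of the head of the subunit, had 3859 in the pooled call, 2064 in replicate 1 and 1812 in replicate 2 (3R, 15229339 to 15229739, rank 21). mRpS23, a mitochondrial addition, had 2752, with 1724 and 1080.0 (2L, 13835121 to 13835629, rank 55). Its summit was 375 bp upstream of its own TSS and nearer to that of the gene beside it. mRpS2, a counterpart of a bacterial protein between head and body, had 1709, with 1075 and 666 (2L, 4850370 to 4850724). mRpS6, a counterpart of the bacterial partner of S18, had 748, with 442 and 282 (3L, 4364331 to 4364561). The 3 genes for S18-type proteins had lower peaks, separate from each other but each shared with a neighbouring gene. Their values were 592 at mRpS18A, 395 at mRpS18B and 317 at mRpS18C.

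Neither the subunit nor the origin of the protein split the genes cleanly. The large and small subunits differed by less than their counting error (exact 95% intervals 46.4 to 75.5 and 44.3 to 82.8). Proteins counted as having a bacterial counterpart were those numbered up to 36 in the large and 21 in the small subunit, with mRpS24, mRpL47 and mRpL55 added by name. They had a summit in 32 of 45 genes (71.1%, interval 55.7 to 83.6), and the mitochondrial additions in 14 of 28 (50%, interval 30.6 to 69.4). These intervals overlap, and the medians of the signal value were 548 and 591. By number alone, without the 3 added names, the counts were 30 of 42 (71.4%) and 16 of 31 (51.6%). In mammals the proteins named S30 and S18A were later placed in the large subunit, and the fly genes are counted here by their symbol.

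The remaining 27 genes had no reproducible promoter summit. In the large subunit these were mRpL1, mRpL3, mRpL12, mRpL13, mRpL14, mRpL15, mRpL16, mRpL30, mRpL33, mRpL38, mRpL40, mRpL43, mRpL45, mRpL46, mRpL48, mRpL49, mRpL52 and mRpL55. In the small subunit they were mRpS5, mRpS9, mRpS14, mRpS25, mRpS28, mRpS29, mRpS33, mRpS34 and mRpS35. A pooled promoter peak was present at 12 of them, with signal values of 76.2 to 189 and ranks of 6893 to 23570, below the reproducible list in every case. Members lacked a pooled promoter summit less often than all genes, since 79.5% of members and 56.1% of all genes had one. The share of all genes with a summit in no list is not given here. No list had a promoter summit at 10: mRpL1, mRpL12, mRpL30, mRpL38, mRpL43, mRpL46, mRpS14, mRpS28, mRpS34 and mRpS35. Among these mRpL1 and mRpL12 encode counterparts of the proteins of both flexible stalks of the bacterial ribosome. Their nearest pooled summits were 15759 and 2016 bp from the TSS, and over the 10 genes the distance ran from 2008 bp at mRpL46 to 19191 bp at mRpL30. Partners in the same structure could differ, since mRpL10, which in bacteria anchors the L12 stalk, had a reproducible peak of 544 in the pooled call, 318 in replicate 1 and 218 in replicate 2.

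At 5 genes 1 replicate list had a promoter summit and the other had none. Over all genes 57.4% had one in replicate 1, 56.7% in replicate 2 and 49.8% in both. For members these shares were 82.2%, 83.6% and 79.5%, so disagreement was less common among them than among all genes. mRpL16, whose bacterial counterpart helps to position transfer RNA, had a replicate 1 peak of 352 on X (1890038 to 1890256), with its summit 90 bp upstream of the TSS. This ranked 1293 in that list, while replicate 2 had no promoter summit there and the nearest pooled summit was 3712 bp away. The other 4 were lower in their lists, at mRpL3 (55.3, replicate 2), mRpL15 (46.9, replicate 2), mRpL45 (40.5, replicate 1) and mRpL48 (104, replicate 2). mRpS29, a GTP-binding protein of the small subunit, had a promoter summit in both replicate lists but none in the pooled list.

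The 1000 bp rule left no borderline gene on the inner side. Taking only the reproducible summit nearest to each gene, the farthest inside the rule were at 271 bp (mRpL22), 375 bp (mRpS23) and 397 bp (mRpL36). The nearest ones outside it were at 1397 bp (mRpL13), 1918 bp (mRpL33) and 2008 bp (mRpL46). The highest peak, from which a gene's signal value and position are taken, could lie farther out, at 415 bp for mRpS30 and 659 bp for mRpL35.

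Summits sat just upstream of the start sites. For the highest promoter peak of each gene, 42 of 46 summits (91.3%) were upstream, against 81.3% over all genes with a reproducible promoter summit. The median position was -140 bp (quartiles -204 and -84.2), and over all genes it was -142 bp (quartiles -240 and -40). Within 250 bp of the TSS lay 39 of the 46 (84.8%), against 69.3% of all. By annotation 32 summits were intergenic, 12 in a 5′ UTR, 1 in an intron (mRpL35) and 1 in a coding exon (mRpL36).

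Most of these genes share their promoter region with a divergent gene, meaning a protein-coding gene on the opposite strand that starts upstream within 1000 bp. This holds for 58 of 73 members (79.5%), against 36.2% of all protein-coding genes, with median distances between the start sites of 283 and 298 bp. Of the 58, 42 (72.4%) had a reproducible promoter summit, against 55% of all genes with a divergent neighbour. Of the 15 without such a neighbour, 4 (26.7%) had one, against 18.8% of all genes of that kind. These 4 were mRpL9, mRpL10, mRpL19 and mRpL36. In the pooled list the members with a divergent neighbour had a promoter summit in 47 of 58 genes (81.0%, against 72% of all such genes). Those without had one in 11 of 15 (73.3%, against 47%).

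At 42 of the 46 genes with a peak, the summit was therefore also a promoter summit of the divergent neighbour. At 43 (93.5%) it lay within 1000 bp of some other protein-coding gene, against 64.3% of all genes with a reproducible promoter summit. The neighbour's TSS was the closer of the pair at 24 genes, and the member's own was as close or closer at 19. At mRpL9, mRpL10 and mRpL19 no other protein-coding gene started within 1000 bp of the summit. No peak was shared between members of the family, so that the 46 genes had 46 separate peaks.

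The neighbours at the highest peaks have varied functions. mRpL41 lay opposite CG8079, whose TSS was 614 bp from the summit against 148 bp for mRpL41. The summit at mRpS10 was 131 bp from Art3, a protein arginine methyltransferase, and 126 bp from mRpS10 itself. At mRpL24 it was 110 bp from betaggt-I, a subunit of a protein prenyltransferase, and 108 bp from the member. The summit at mRpS23 was nearer to CenG1A, an Arf GTPase-activating protein, at 117 bp. mRpS2 was paired with Mon1 (endosomal traffic, 78 bp) and mRpL20 with Icmt (a carboxyl methyltransferase of prenylated proteins, 183 bp). At mRpS10 and mRpL24 the distances to both start sites were within 5 bp of each other.

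Other neighbours act in mitochondria too. They were chosen after their names were seen. mRpL18 was paired with Taz, which remodels the mitochondrial lipid cardiolipin, with the summit 10 bp from the Taz TSS and 30 bp from that of mRpL18. mRpL11 was paired with HtrA2, a mitochondrial protease, and had 399 in the pooled call, 206 in replicate 1 and 240.5 in replicate 2. mRpL35 was paired with Mitofilin, which shapes the cristae, and had 451, with 246 and 194. mRpL32 was paired with qless, an enzyme of coenzyme Q synthesis, and had 726, with 416 and 286. Cell cycle and chromatin genes also occurred, with Cdk1 beside mRpS7, Snr1 beside mRpL44 and rept beside mRpL21.

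**Figure D3:**
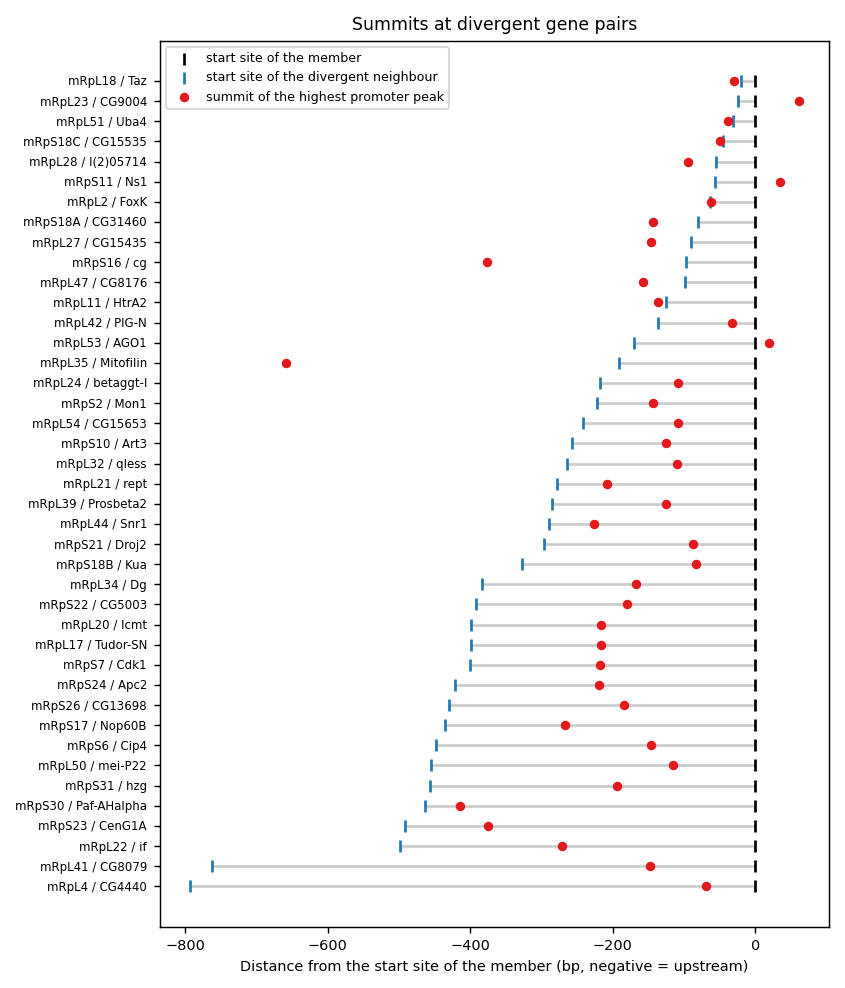
Position of the highest promoter summit (red) at 41 of the 42 members with a reproducible peak and a divergent neighbour, on an axis of distance from the start site of the member (black, at 0) in bp, with the start site of the neighbour in blue. Pairs are sorted by the distance between start sites, and at those 200 bp or more apart every summit lies between the start sites.

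Within the pairs the summit tended to lie between the start sites where there was room. Over all 42 pairs, 29 summits (69.0%) lay between them, against 66.1% of all 2781 divergent genes with a peak. Where the start sites were at least 200 bp apart, a distance chosen after the positions were seen, 27 of 27 did so, against 79.0% of 2059 over all genes. Where they were closer together, 2 of 15 (13.3%) did so, against 29.1% of 722. Among these closer pairs were mRpL35, where the summit was 659 bp upstream in an intron of Mitofilin, and mRpS16, where it was 376 bp upstream.

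Members on X stood below those on the autosomes, a split singled out after its values were seen. On the autosomes 44 of 62 members (71.0%, exact 95% interval 58.1 to 81.8) had a reproducible promoter summit, against 32.6% of all genes there. On X 2 of 11 had one (18.2%, interval 2.28 to 51.8), against 28.2% of all genes on X. Divergent neighbours were as common on X, where 9 of 11 members had one, and 2 of these 9 had a summit, against 45.7% of all divergent genes on X. On the autosomes 40 of 49 divergent members (81.6%) had a summit, against 56.8%. In the pooled list 7 of 11 members on X had a promoter summit (63.6%, against 47.4% of all genes on X) and 51 of 62 on the autosomes (82.3%, against 57.7%). Members on X were thus below all genes on X in the reproducible list and above them in the pooled list.

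Both X-linked members with a reproducible peak were low. mRpL22, a counterpart of a bacterial protein of the tunnel wall, had 249.9 in the pooled call, 129.7 in replicate 1 and 63.2 in replicate 2. mRpS30 had 323, with 201 and 177. Pooled peaks on X outside the reproducible list were lower still, at mRpL49 (176), mRpS25 (174), mRpL3 (129.5), mRpL14 (102) and mRpL33 (95.6). Each of these genes but mRpL3 also had a promoter summit in both replicate lists, and mRpL3 had one in replicate 2 only. In the 6153 highest peaks of replicate 2 alone the count on X was 1, and in those of replicate 1 alone it was 3, the latter through mRpL16. The larvae were of both sexes, and the part of sex in the difference between X and autosomes was not tested.

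The letters of the Cnc-Maf site were not found under these peaks. Motifs were searched on both strands in the 46 member windows and in all 3832 promoter peak windows, which include them. A member window is at the highest promoter peak of its gene. The 3832 also include peaks that are not the highest of any gene, so the 2 sets are not fully alike. TGACNNNGC, the Cnc-Maf consensus, had 0 matches in member windows, against 2.61% of all, and its stricter form TGACTCAGC had 0 against 0.0783%. The AP-1 word TGACTCA, which lies within the strict form, had 0 against 0.757%. The cyclic AMP response element TGACGTCA had 0 against 0.157%, and the ATF4 and C/EBP composite TGATGCAA had 0 against 0.235%. With 46 windows, 0 matches say only that these letters are not in these windows.

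Words of fly core promoters were counted both under the summits and in promoter windows. The promoter windows are longer, so that shares are compared only between members and all genes for the same window. DRE, with the letters TATCGATA, was in 1 member window (2.17%, mRpL10), against 4.23% of all. Its inner word CGATA, the core bound by BEAF-32, was in 7 (15.2%), against 22.4%. In the promoter windows, from 250 bp before to 50 bp after the TSS, DRE was in 15 of 73 members (20.5%) and 9.37% of all 13945 genes, and CGATA in 43 (58.9%) and 47.5%. Motif 1, searched as GGTCACAC, was in 0 summit windows and 8 promoters (11.0%, against 7.71% of all). GAGAGAG was in 0 summit windows, against 1.64%, and GCGCATGC, the site type of Ewg and NRF-1, in 0 against 0.0783%. CACGTG was in 1 summit window (mRpL27), against 1.02%.

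The word that these promoters share lies at the start site. CAGCTG, the E-box element of Drosophila core promoters, was in the promoter window of 40 of 73 members (54.8%), against 17.7% of all genes. In 35 members (47.9%) it lay within 50 bp of the TSS, against 9.65% of all genes and 13.3% of all genes with a reproducible promoter summit. The median position was 7 bp downstream (quartiles -14.8 and 19.0). The position was looked at after the count was known. Examples are printed on the strand of the gene, with the word in capitals, read from the RefSeq genome sequence on dm6.
mRpL23, chr3L:2373717-2373742, minus strand: ggttgacaatCAGCTGtttaaaacaa
mRpL24, chr2L:4945326-4945351, minus strand: cagttctcaaCAGCTGattgcaagcc
mRpS2, chr2L:4850415-4850440, minus strand: cactacccacCAGCTGtttaccaaaa
mRpL32, chr3R:31252846-31252871, plus strand: atcgatagcaCAGCTGtttcctcttg
mRpS6, chr3L:4364554-4364579, plus strand: ttccttgcatCAGCTGttaacactat
mRpL46, chr3L:1777427-1777452, plus strand: tgccgcaaatCAGCTGttccggctct
mRpS34, chr3L:16348066-16348091, plus strand: ccagccggcaCAGCTGttcgaccttc
mRpS35, chr3L:2780877-2780902, plus strand: tttctgtaaaCAGCTGattgcttgct
The first 5 genes had a reproducible promoter summit, and mRpL46, mRpS34 and mRpS35 had none in any list.

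The word was found in members with and without a peak. It was in the promoter of 24 of 46 members with a reproducible promoter summit (52.2%) and 16 of 27 without (59.3%). Over all genes the shares were 21.5% with a reproducible promoter summit and 15.9% without. Where both were present the median distance from word to summit was 112 bp, and in 3 of 24 genes it was within 50 bp. In the summit windows it was found in 4 of 46 (8.7%), at mRpL18, mRpL53, mRpS18C and mRpS30, against 4.59% of all.

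**Figure D4:**
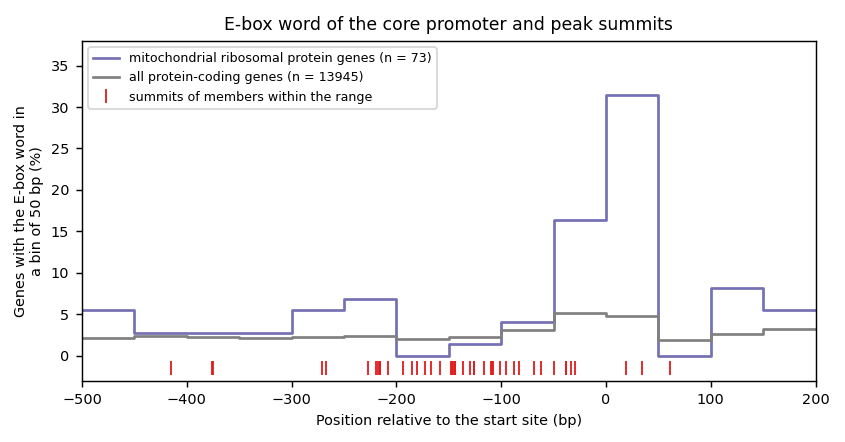
Share of genes (vertical axis, percent) with CAGCTG in each 50 bp bin around the start site (horizontal axis, bp), for the 73 members (purple) and all 13945 protein-coding genes (grey), with red marks for the member summits. The members reach 31.5% just downstream of the start site, against 4.83% of all genes, while most summits lie further upstream.

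The rest of the mitochondrial translation system had fewer peaks but shared the word. Of 34 other genes for mitochondrial transfer RNA synthetases, translation factors and factors of mitochondrial transcription, 10 (29.4%, exact 95% interval 15.1 to 47.5) had a reproducible promoter summit, near the 31.9% of all genes. A summit was present at 4 of 15 synthetases (26.7%) and 6 of the 19 other genes (31.6%). The highest peaks were at synthetases. ArgRS-m had 924 in the pooled call, 586 in replicate 1 and 428 in replicate 2, and ProRS-m had 623, with 398 and 214. The release factor mRF1 had 564, with 334 and 174, and the elongation factors mEFTu1 and mEFG1 had 427 and 268. The elongation factors mEFTu2 and mEFTs had no reproducible promoter summit. TFAM and PolrMT, which package and transcribe mitochondrial DNA, and tko and bonsai, small subunit proteins whose symbols fall outside the naming rule, had none. CAGCTG was in 19 of these 34 promoters (55.9%), within 50 bp of the TSS in 18 (52.9%).

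Cytosolic ribosomal protein genes showed the reverse. They had a reproducible promoter summit in 55 of 93 genes (59.1%, interval 48.5 to 69.2), overlapping the interval of the mitochondrial ones, with a lower median signal value of 409. CAGCTG was in 9 of their 93 promoters (9.68%). Nuclear genes of the respiratory chain lay between, with 37 of 91 (40.7%, interval 30.5 to 51.5), a median of 415 and the word in 21 (23.1%). Among divergent genes alone the shares with a summit were 72.4% for the mitochondrial ribosomal proteins, 64.3% for the cytosolic ones, 55.6% for the respiratory chain and 38.9% for the other mitochondrial translation genes. These differences between lists were not tested.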

How the data were processed

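Both replicates had a peak list on dm6, and a pooled list and a reproducible (IDR) list covered the series. The authors deposited a signal value per peak, a score made against a control, with no stated scale, the −log10 of each peak's q-value, and the summit as an offset from the peak start. Per the labels, chromatin was sheared by sonication. The sources used here do not give the aligner, the peak caller or the IDR threshold. The pooled and replicate lists hold 30000 peaks each, the reproducible list 6153, all present unchanged in the pooled list. Read numbers were not used here, so depth is unknown. The dm3 lists were not used here.

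Summits were assigned in Python 3.11.15 (numpy 2.4.6, pandas 2.3.3, scipy 1.17.1) to every protein-coding gene of Ensembl release 115 with a TSS within 1000 bp. A gene's peak was its highest one. A replicate's value is that of its highest overlapping peak. Motifs were read from the RefSeq genome sequence with Biopython 1.88. Assignment and motif search were tested on simulated data. Signal values were ranked within lists, with no mean or SD. The members and lists were chosen with earlier results of these data known. Named are the 15 members with the highest peaks, all without one, those with a summit in 1 replicate list and those at the edge of the rule; others are named beside a count. Of the names searched for other mitochondrial translation genes, DAP3, ico, mtIF2, mtIF3 and Nsun4 matched no symbol. Alternatives covered the distance, the TSS rule, the list, each replicate left out, the overlap and the motif window. A divergent neighbour of a member is not reported here.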

Additional observations from a re-analysis of the deposited data

How the results depend on the processing

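The count of 46 members held at 42 within 250 bp (57.5%, against 24.0% of all genes). Within 500 bp it was 46 (63.0%, against 28.4%), and within 2000 bp 48 (65.8%, against 36.9%). The upper part of the list gave 37 (50.7%, against 20.3%). Leaving out a replicate meant taking the 6153 highest peaks of the other replicate's own list, with no IDR step. Without replicate 1 the count was 46 (63.0%, against 31.2%), and without replicate 2 it was 45 (61.6%, against 32.0%). It was 23 (31.5%, against 23.0%) when each summit went to the gene of the nearest TSS only. The median percentile was 54.1 in the upper part and 93.5 in the whole pooled list, since percentiles are taken within the list used, and 72.0 to 75.6 with 1 replicate left out. A promoter summit in both replicate lists was counted at 58 members (79.5%, against 49.8% of all genes). Overlap of at least 50% of the reproducible peak by both gave 38 of the 46 with such a peak. Windows of 100 bp to either side of the summit gave 0 matches for Cnc-Maf, against 5.74% of all promoter peak windows. They gave 2 for CACGTG (4.35%, against 2.22%). They gave 9 for CAGCTG (19.6%, against 10.2%), 5 for DRE (10.9%, against 7.99%) and 21 for CGATA (45.7%, against 38.9%). Promoter windows of all members gave 1 each (1.37%) for Cnc-Maf (against 8.64% of all genes), AP-1 (2.5%), GAGA (5.87%) and the Ewg type (1.05%). They gave 2 for the ATF4 composite (2.74%, against 0.817%), 5 for CACGTG (6.85%, against 4.24%) and 8 for motif 1 (11.0%, against 7.71%). The counts were 15 for DRE (20.5%, against 9.37%), 40 for CAGCTG (54.8%, against 17.7%) and 43 for CGATA (58.9%, against 47.5%). These windows are longer and more numerous. Counting bacterial counterparts by number alone gave 30 genes with a summit, and 16 among the others. Alternatives for the classes, the other gene lists and X were chosen after seeing the data. The count on X was 7 in the pooled list and 1 to 3 with 1 replicate left out. mRpL22 was lost without replicate 1 (rank 11946), and mRpL36 (12862) and mRpS7 (6329) without replicate 2, while mRpL48 or mRpL16 was gained; 43 genes were kept in both. No paired analysis was possible because there was 1 group. Against the shares over all windows or genes, the order did reverse in some alternatives. Members went from below to above for DRE and CGATA in windows of 100 bp, and on X in the pooled list. In promoter windows they did so for DRE, CGATA, motif 1, the ATF4 composite and the Ewg type. The other mitochondrial translation genes went from below all genes to above without replicate 2 (38.2%, against 32.0%). Depth was unknown, so a missing peak may lie below what these lists could show.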
